A study of Homo sapiens with 6 samples.

Results

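The 29 genes described here encode proteins of the small (40S) subunit of the cytosolic ribosome, together with RPS27L, a paralog of RPS27. They were taken by symbol from a fixed list of names, using only the protein-coding gene of each name and none of its pseudogenes, and all 29 were found among the 60624 genes of the expression table. The list is not the full set of 40S proteins. A549, an epithelial cell line from a human lung adenocarcinoma, was transfected for 3 days either with a control siRNA (siCTR, 3 samples) or with siRNA against CEP20, a centrosomal and centriolar satellite protein (siCEP20, 3 samples), and poly(A) RNA was sequenced. The groups differed in the siRNA only and shared the cell line, the transfection and its duration, although 1 label field speaks of a plasmid. The study's methods describe more than 1 siRNA against CEP20, and the labels do not say which was used, so an effect of the siRNA sequence itself and of CEP20 loss cannot be told apart. The question was how the level of each 40S gene differed between siCEP20 and siCTR cells.

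The small subunit binds the mRNA, scans for the start codon and holds the decoding centre, where each codon is matched to a tRNA. Its proteins sit on a single ribosomal RNA in regions called head, body and platform, and dividing cells need them in equal numbers, one copy of each per ribosome. In vertebrates most mRNAs of ribosomal proteins begin with a C followed by an uninterrupted run of pyrimidines (C or T), the 5′ terminal oligopyrimidine (TOP) tract. The protein LARP1 and the kinase complex mTORC1 act through this tract on translation and stability.

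Values are TPM (relative transcript abundance), which are already divided by transcript length and by the total of the library. TPM gives a share of the RNA of a library, so less RNA of a gene in each cell and more RNA of other genes, or fewer cells that express it, cannot be told apart. Read depth is unknown, and precision rests on 3 replicates a group. CEP20 itself was 15.3 to 17.3 TPM with its siRNA and 29.2 to 35.1 TPM with the control, or 51.4% of control. The epithelial genes KRT7, KRT8 and KRT18 and the aldo-keto reductases AKR1B10 and AKR1C1 were at 178 TPM or more in all 6 libraries, EPCAM was 0.834 to 3.85 TPM, and alveolar SFTPC was at most 0.171 TPM. Of 9 fibroblast, immune and endothelial markers, 7 were at most 0.21 TPM in every library, among them COL1A2, LUM, PTPRC and PECAM1. COL1A1 (5.27 to 5.89 TPM in siCTR, 17.5 to 19.6 TPM in siCEP20) and CD68 (means of 18.9 and 33.8 TPM, without overlap) were higher with the knockdown, and their part in the results was not tested. CDKN2A, deleted in A549, did not exceed 0.608 TPM. MTATP8P1, a mitochondrial pseudogene, took 23890 TPM in siCTR replicate 1 and 51260 TPM in siCEP20 replicate 1 and was listed at 0 in the other 4 libraries. The main counts, the members' median and share of all TPM, some list counts and some single members are therefore also given without replicate 1 of both groups. The other values include these libraries.

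The first bases of the mRNAs are shown for several of the members that fell most, so that their starts can be compared with their responses. They are also shown for RPS24, RPS25 and RPS15, which did not pass the test, and for RPS26, which rose. Not shown, among others, are RPS27A (log2 fold change -0.97, a run of 6 pyrimidines) and RPS10 and RPS23 (7 each), which did not pass either. The windows run from 10 bases before to 20 bases from the annotated start, were taken from RefSeq on GRCh38.p14 and are written on the strand of the gene. Capitals mark a C at the annotated start and the pyrimidines that follow it without a break, where there were at least 4 of them.
RPS12: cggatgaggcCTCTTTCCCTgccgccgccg
RPS21: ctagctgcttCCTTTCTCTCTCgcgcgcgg
FAU: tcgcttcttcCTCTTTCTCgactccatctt
RPS19: ccccgtcgttCCCTTTCCCCTggctggcag
RPS18: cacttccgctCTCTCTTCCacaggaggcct
RPS24: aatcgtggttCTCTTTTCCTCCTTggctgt
RPS25: gcagcgcttcCTTTTTgtccgacatcttga
RPS15: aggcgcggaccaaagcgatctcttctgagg
RPS26: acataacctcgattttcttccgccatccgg
RPS28: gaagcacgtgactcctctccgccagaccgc
RPS29: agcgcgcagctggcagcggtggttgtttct

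These windows lie at chr6:132814559-132814588 (RPS12, plus strand), chr20:62387093-62387122 (RPS21, plus), chr11:65122115-65122144 (FAU, minus), chr19:41860245-41860274 (RPS19, plus) and chr6:33272065-33272094 (RPS18, plus). The others are at chr10:78033853-78033882 (RPS24, plus), chr11:119018324-119018353 (RPS25, minus), chr19:1438386-1438415 (RPS15, plus), chr12:56041908-56041937 (RPS26, plus), chr19:8321486-8321515 (RPS28, plus) and chr14:49598691-49598720 (RPS29, minus). The start that A549 cells use was not measured. An entry was matched for 26 of the 29 members, all but RPS2, RPS15A and RPS20. A C followed by at least 4 pyrimidines stood at the annotated start of 19 of these 26 (73.1%), and at 7.08% of 9827 tested protein-coding genes outside the ribosomal protein lists. Within 5 bases of the annotated start it stood in 80.8% of the 26 and in 29.3% of these other genes. On the opposite strand it stood at the start of 0 of the 26.

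A tract that begins a few bases from the annotated start was scored as absent, and its part in the falls was not tested. Most members were lower both with and without the tract at the annotated start. Of the 19 members with it, 15 were lower in siCEP20 samples (median log2 fold change -0.76), and of the 7 without it at this position, RPS4X, RPS7, RPS15, RPS26, RPS27L, RPS28 and RPS29, 5 were lower (median -0.35). RPS24 carries the longest run among the members, 14 pyrimidines, and did not pass the test. RPS29 lacks the tract at the annotated start and had the most negative fold change of the 29 when all libraries were used. Without replicate 1 of both groups RPS29 was at -1.22, and RPS12, which has the tract, was lower at -1.31. RPS28 lacks it too, at -1.31 when taken alone and 0.25 with its pseudogenes added, and with pseudogenes added 4 of the 7 were lower (median -0.19). Among the 696 tested genes outside the ribosomal protein lists that have the tract, 12.4% were lower (median 0.18), beside 13.2% of those without it (median 0.14).

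Most 40S genes were lower after CEP20 knockdown, by amounts that differed widely from gene to gene. At an adjusted p under 0.05 (limma, Benjamini-Hochberg over 14778 tested genes), 23 of the 29 were lower, 1 was higher and 5 did not pass, whereas 13.2% of all tested genes were lower and 30.2% higher. With a fold change under 0.67 required as well, 15 of the 29 were called lower, against 4.61% of all tested genes, and 0 were called higher, against 11.2%. The 3 siCEP20 values lay below the 3 siCTR values for 24 members (17.0% of all tested genes) and above them for 1 (38.4%).

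The median log2 fold change of the 29 was -0.72, while that of all tested genes was 0.13, a distance of -0.85. When the libraries were scaled by the median of ratios, the median of all tested genes was close to 0 (-0.00095), that of the members was -0.87, and 24 members were lower and 1 higher. The whole table then split into 3185 lower and 2960 higher genes in place of 1944 and 4457. Without replicate 1 of both groups, 22 members were lower, 1 was higher and 15 were called lower, with a median of -0.68.

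**Figure D1:**
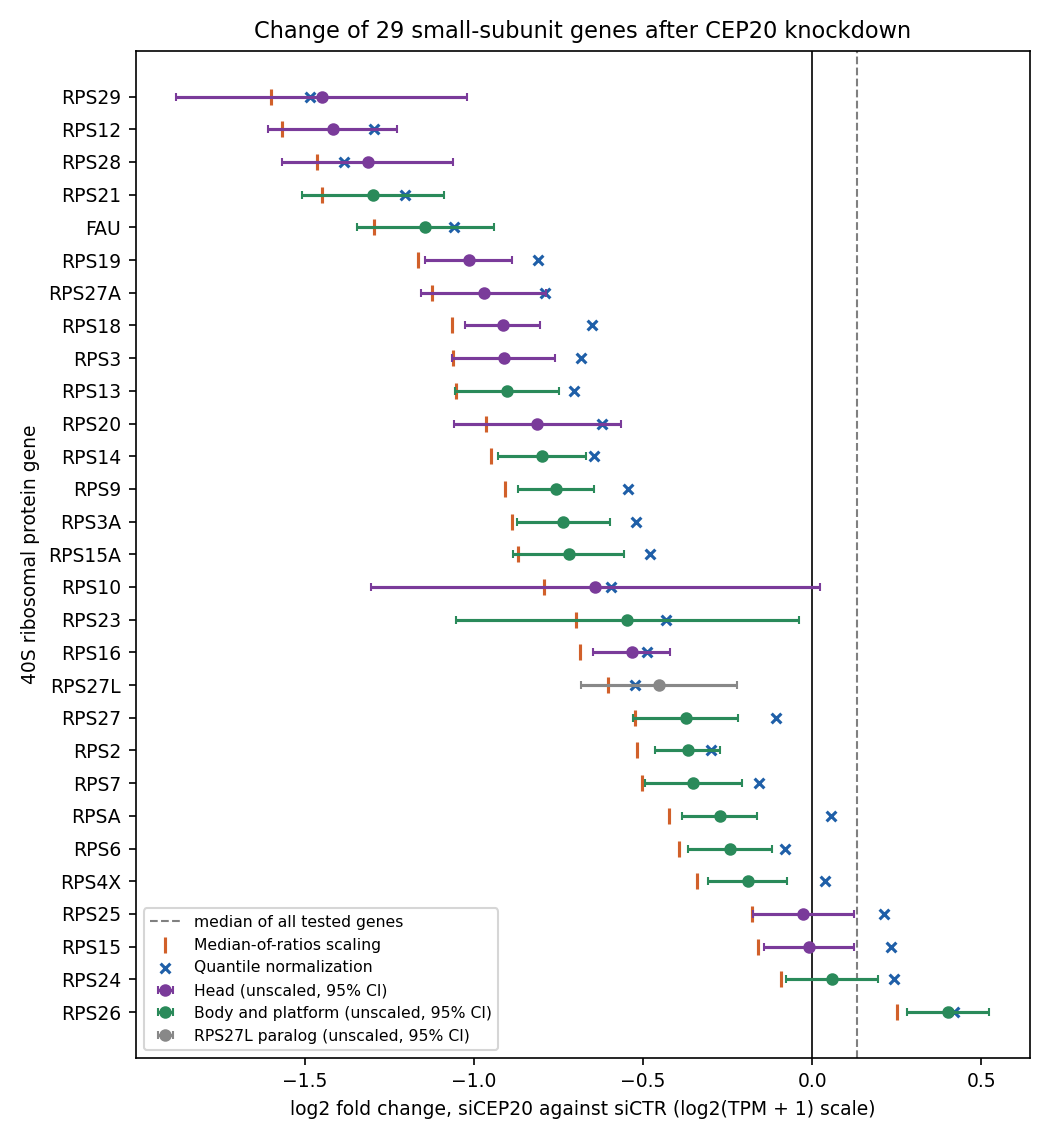
The log2 fold change (siCEP20 against siCTR, log2(TPM + 1) scale) of each of the 29 members is plotted with its 95% confidence interval, coloured by the region of the subunit, with an orange mark for median-of-ratios scaling, a blue cross for quantile normalization and a dashed line at the median of all tested genes. RPS29 (-1.45) and RPS26 (0.40) mark the ends, and the intervals of RPS10, RPS15, RPS24 and RPS25 include 0.

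The 29 genes together took 5.83%, 5.51% and 5.25% of all TPM in siCTR samples and 3.70%, 3.88% and 3.72% in siCEP20 samples. The groups did not overlap, and the means, 5.53% ± 0.292 and 3.77% ± 0.0981 (SD, n = 3), differed by -1.77 percentage points. Within siCTR, 24 of the 29 members were highest in replicate 1 and 23 were lowest in replicate 3, a shared spread that stayed smaller than the distance between the groups. The difference was -1.75 points with MTATP8P1 left out of the total and -1.58 points without replicate 1 of both groups. The same direction was seen in both regions of the subunit. Members of the head went from 2.39% ± 0.154 to 1.46% ± 0.0501, and members of the body and platform from 3.13% ± 0.146 to 2.30% ± 0.0503 (SD, n = 3).

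**Figure D2:**
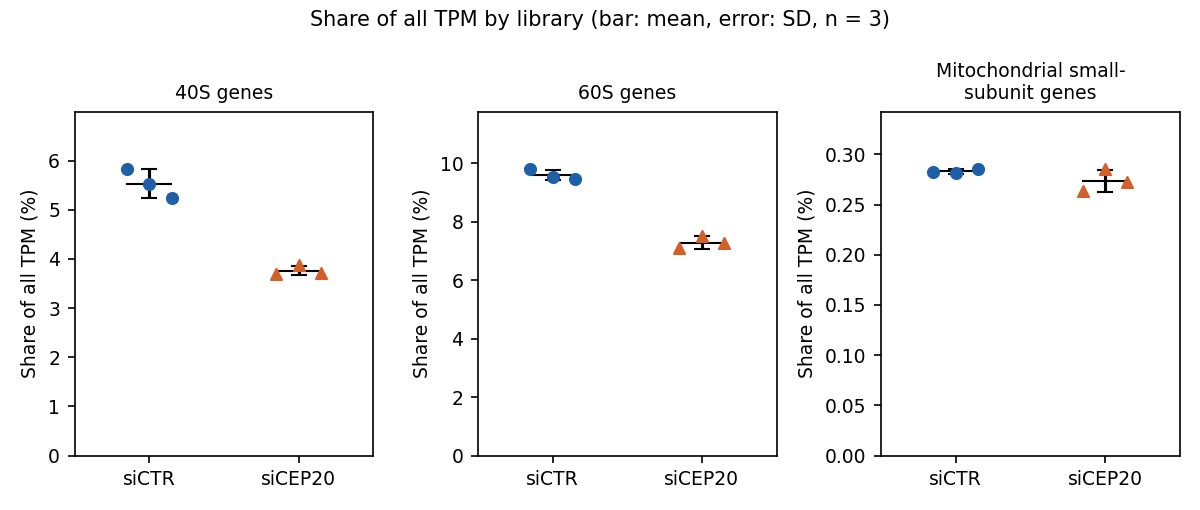
The share of all TPM (percent) taken by the 29 genes of the 40S subunit, by 47 genes of the 60S subunit and by 31 genes of the mitochondrial small subunit is plotted for each library. The 40S share was 5.25% to 5.83% in siCTR and 3.70% to 3.88% in siCEP20 libraries, and the mitochondrial share overlapped between the groups.

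In the head of the subunit, which closes over the mRNA and the tRNAs, 9 of 12 members were lower 8 of them called lower, and the median log2 fold change was -0.91. RPS29, a small zinc-binding protein (ENSG00000213741, chromosome 14 of hg38, 49570984 to 49599164, minus strand), was 673.2, 543.9 and 377.0 TPM in siCTR and 179.5, 174.6 and 214.0 TPM in siCEP20 samples. Its groups were far apart although siCTR spread widely, and it fell to 35.6% of control (log2 fold change -1.45, SE 0.187, adjusted p = 0.00064). RPS29 lies across LRR1 and RN7SL1 on the opposite strand, as RPS3A, RPS4X, RPS6, RPS23, RPS25, RPS27A, RPS27L and RPS28 lie across other genes. The libraries kept the strand, but the strand setting of the quantification is not given in the sources used here, so reads of such pairs may not have been told apart.

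RPS12, a protein of the beak of the head (ENSG00000112306, chromosome 6, 132814569 to 132817564, plus strand), was 2046, 1852 and 1618 TPM in siCTR and 661.1, 676.1 and 718.6 TPM in siCEP20 samples. Each siCEP20 sample lay far below each siCTR sample, and the siCEP20 values were close together. The log2 fold change was -1.42 (SE 0.083, adjusted p = 3.29e-05), leaving 37.3% of control.

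RPS28, which sits near the exit of the mRNA (ENSG00000233927, chromosome 19, 8321158 to 8323340, plus strand), was listed at 173.3, 161.6 and 129.5 TPM in siCTR and at 59.3, 57.9 and 66.8 TPM in siCEP20 samples. The groups were separate, with a log2 fold change of -1.31 (SE 0.110, adjusted p = 9.83e-05). This direction depends on a pseudogene of the same sequence, described further on, and turns when both are added.

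RPS19, the protein most often mutated in Diamond-Blackfan anaemia, fell to 49.4% of control, with 2324 to 2631 TPM in siCTR and 1190 to 1262 TPM in siCEP20 samples (log2 fold change -1.02). RPS18, which touches the large subunit across the interface, and RPS3, which lines the entry of the mRNA channel, each kept 53.0% of control, with log2 fold changes of -0.91. RPS20, at the same side of the head and modified by ubiquitin when ribosomes stall, fell to 57.1% (log2 fold change -0.81). None of these 4 genes had overlapping groups.

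RPS16, whose tail reaches the tRNA in the P site, was the most abundant member in every library. It stood at 6752, 6694 and 6629 TPM in siCTR and at 4442, 4915 and 4515 TPM in siCEP20 samples. The siCTR values lay close together and the groups were separate, with a log2 fold change of -0.53 (SE 0.049, adjusted p = 0.000148), which left 69.1% of control and missed the fold change of 0.67.

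RPS10, a neighbour of RPS3 and RPS20 at the entry of the channel, spread more within both groups than any other member of the head. It was 806.2, 1181 and 595.4 TPM in siCTR and 666.0, 633.0 and 353.3 TPM in siCEP20 samples. The groups overlapped, and the log2 fold change of -0.64 (95% interval -1.31 to 0.02, adjusted p = 0.106) did not pass. Single libraries decided its size. It was -0.88 without siCTR replicate 3 (adjusted p = 0.045), -0.39 without siCTR replicate 2 (adjusted p = 0.295) and -0.35 without siCEP20 replicate 3 (adjusted p = 0.291). RPS10 shares its strand and exons with the readthrough gene RPS10-NUDT3, which took 127.7, 95.9 and 134.8 TPM in siCTR and 29.4, 34.2 and 93.4 TPM in siCEP20 samples, so the division of reads between both genes is uncertain.

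RPS25 and RPS15 were close to control. RPS25, needed by some viral RNAs that start translation from an internal site, was 1393, 1302 and 1286 TPM in siCTR and 1218, 1276 and 1419 TPM in siCEP20 samples (log2 fold change -0.03, 95% interval -0.18 to 0.12, adjusted p = 0.764). RPS15, whose tail reaches the decoding site, was 1430, 1338 and 1313 TPM in siCTR and 1346, 1434 and 1278 TPM in siCEP20 samples (log2 fold change -0.01, 95% interval -0.14 to 0.12, adjusted p = 0.914). Both pairs of groups overlapped, and neither interval goes below -0.18 on the log2 scale. Under quantile normalization both were higher, at 0.21 and 0.23.

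**Figure D3:**
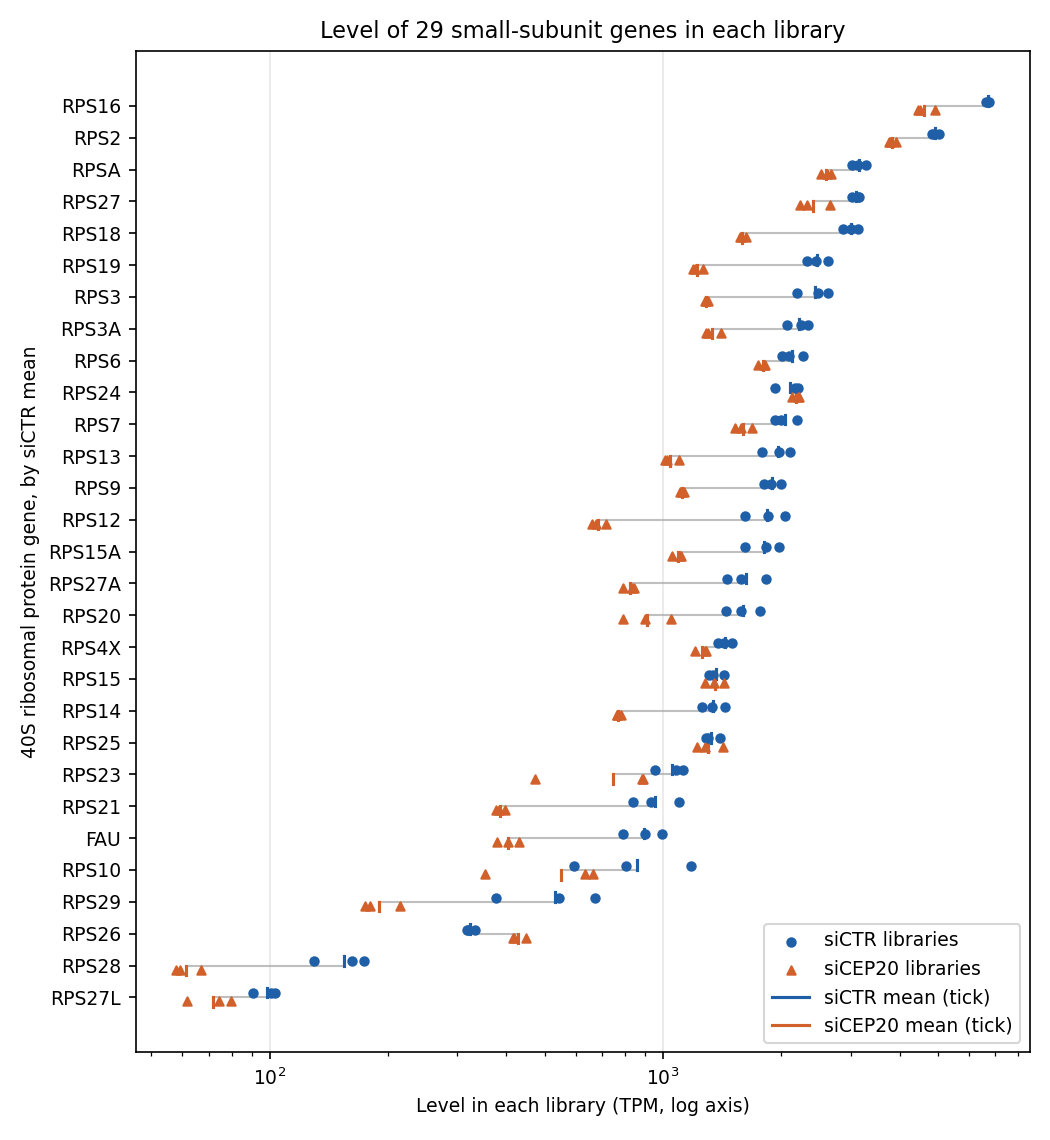
The TPM of each of the 29 members is plotted in each of the 6 libraries on a log axis, with a tick at each group mean. RPS16 was the highest member in every library (4442 to 6752 TPM), and the groups separate for most members but overlap for RPS10, RPS15, RPS24 and RPS25.

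In the body and platform, 13 of 16 members were lower, 1 was higher and 7 were called lower (median -0.46 on the log2 scale). RPS21, a neighbour of RPSA, fell most. Its TPM was 837.3 to 1098 in siCTR and 376.0 to 397.1 in siCEP20 samples, or 40.3% of control (log2 fold change -1.30, SE 0.091, adjusted p = 5.34e-05). The siCEP20 values lay closer together than the siCTR values and were less than the lowest of them.

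RPS13, an early binder of the ribosomal RNA, fell to 53.4% of control (log2 fold change -0.90). RPS14 of the platform, whose loss contributes to the anaemia of the 5q- syndrome, fell to 57.3% (-0.80). RPS9, at the mRNA entry, fell to 59.1% (-0.76), RPS3A, of the platform, from 2220 ± 142 to 1332 ± 62.2 TPM (SD, n = 3, -0.74), and RPS15A, which binds the central domain of the ribosomal RNA, to 60.5% (-0.72). The groups of these 5 genes were separate, and adjusted p ranged up to 0.000201, that of RPS15A.

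RPS2, RPSA, RPS6, RPS7 and RPS4X fell less. RPS2, which lines the mRNA entry, was 5049, 4840 and 4885 TPM in siCTR and 3748, 3910 and 3788 TPM in siCEP20 samples, the second most abundant member, at 77.5% of control (log2 fold change -0.37, SE 0.042, adjusted p = 0.000362). RPSA, also known as the laminin receptor, was 3279, 3141 and 3024 TPM in siCTR and 2518, 2618 and 2676 TPM in siCEP20 samples (log2 fold change -0.27, SE 0.048, adjusted p = 0.00271). RPS6, the substrate of the S6 kinases, was 2270, 2090 and 2014 TPM in siCTR and 1750, 1821 and 1810 TPM in siCEP20 samples (log2 fold change -0.24, SE 0.054, adjusted p = 0.00785). The groups of all 3 were separate, but under quantile normalization RPSA turned to 0.06 and RPS6 was at -0.08, neither past the threshold.

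RPS7 fell to 78.3% of control (log2 fold change -0.35, adjusted p = 0.00273), and its adjusted p was 0.0601 after correction for transcript length and GC content. RPS4X, encoded on the X chromosome, was at 87.6% of control (log2 fold change -0.19, adjusted p = 0.0165). This was the smallest fall that passed, and it was lost without replicate 1 of both groups (-0.13, adjusted p = 0.105) and turned to 0.04 under quantile normalization.

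RPS23, which forms part of the decoding centre, was 1078, 953.8 and 1124 TPM in siCTR and 882.5, 889.5 and 471.8 TPM in siCEP20 samples. The groups were separate, with siCEP20 replicate 3 far below the other two, and the log2 fold change of -0.55 (95% interval -1.05 to -0.04, adjusted p = 0.0779) did not pass. Without that library it was -0.24 with an adjusted p of 0.0411. RPS24, a further Diamond-Blackfan anaemia gene, was 2172, 1926 and 2206 TPM in siCTR and 2131, 2216 and 2211 TPM in siCEP20 samples. Its groups overlapped, at a log2 fold change of 0.06 (95% interval -0.08 to 0.20, adjusted p = 0.45), which was 0.24 under quantile normalization (adjusted p = 0.0267) and -0.09 under the median of ratios.

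RPS26, which lies on the platform at the mRNA exit, was the member that rose. RPS26 (ENSG00000197728, chromosome 12, 56041351 to 56044697, plus strand) was 316.8, 319.2 and 332.9 TPM in siCTR and 417.1, 449.8 and 414.7 TPM in siCEP20 samples. Every siCEP20 value was above every siCTR value, and the mean reached 132.3% of control (log2 fold change 0.40, SE 0.053, adjusted p = 0.000685). It stayed higher under the median of ratios (0.25), quantile normalization (0.42) and a length and GC correction (0.52). Its level for each TPM of RPS12 went from 0.155, 0.172 and 0.206 in siCTR to 0.631, 0.665 and 0.577 in siCEP20 samples, and this ratio does not depend on scaling by a single factor.

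Both members that are made as fusions with a ubiquitin-like part fell. RPS27A, whose precursor is cut into ubiquitin and a protein of the head, was 1829, 1583 and 1454 TPM in siCTR and 792.6, 842.1 and 834.6 TPM in siCEP20 samples. FAU, whose precursor gives the ubiquitin-like FUBI and a protein of the body, was 996.8, 900.0 and 789.4 TPM in siCTR and 402.6, 429.9 and 377.9 TPM in siCEP20 samples. Neither had overlapping groups, with log2 fold changes of -0.97 (SE 0.080, adjusted p = 9.34e-05) for RPS27A and -1.14 (SE 0.088, adjusted p = 7.33e-05) for FAU. FAU shares its strand and some of its position with SYVN1.

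RPS27 and its paralog RPS27L, a known target of p53, encode nearly interchangeable zinc-binding proteins. RPS27 was 3152, 3142 and 3025 TPM in siCTR and 2226, 2322 and 2662 TPM in siCEP20 samples (log2 fold change -0.37, SE 0.068, adjusted p = 0.00304). RPS27L was 101.1, 90.7 and 103.5 TPM in siCTR and 61.6, 79.9 and 74.2 TPM in siCEP20 samples (log2 fold change -0.45, SE 0.101, adjusted p = 0.00784). Both fell without overlap of the groups, while the fall of RPS27 missed the threshold under quantile normalization (-0.11, adjusted p = 0.276) and with length and GC corrected (-0.15, adjusted p = 0.123).

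As a ratio within each library, RPS27L was 3.21%, 2.89% and 3.42% of RPS27 in siCTR and 2.77%, 3.44% and 2.79% in siCEP20 samples, and the groups overlapped. The log2 ratio differed by -0.08 (two-sided exact permutation test, p = 0.6), and by -0.42 both under quantile normalization and with length and GC corrected. With 3 samples against 3 the smallest p is 0.1, so this test could not pass 0.05 and does not show that the balance of the pair was kept.

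The levels of the members moved apart from each other. The SD of log2 TPM over the 29 genes was 1.30, 1.32 and 1.35 in siCTR and 1.46, 1.45 and 1.45 in siCEP20 libraries. RPS28, whose direction is uncertain, entered this SD without its pseudogenes, and the SD without RPS28 was not computed. RPS16 was 3.30, 3.61 and 4.10 times as abundant as RPS12, one of the members that fell most, in siCTR libraries. In siCEP20 libraries it was 6.72, 7.27 and 6.28 times as abundant. Of the 29, 20, 18 and 18 were among the 100 genes of highest TPM in siCTR libraries and 14, 13 and 13 in siCEP20 libraries, and the median member went from 1968, 1829 and 1618 TPM to 1114, 1116 and 1133 TPM. The lowest member was RPS27L in siCTR libraries. In siCEP20 libraries RPS28 was listed lowest, at 57.9 to 66.8 TPM alone but 1299 to 1449 TPM with its pseudogenes added. Across the 29 genes, which share the same 6 libraries, the log2 fold change had a Pearson correlation of 0.10 with the siCTR level, 0.15 with log2 transcript length and -0.11 with GC content.

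Processed pseudogenes, copies of an mRNA pasted into the genome without introns, share sequence with the members, and reads can be divided between a gene and its copies. The annotation holds 474 of them for 28 members and 0 for RPS27L. In siCTR samples the copies made up over 5% of the summed level for 6 members, RPS28 (86.7%), RPS7 (15.9%), RPS27 (15.6%), RPS2 (9.75%), RPS27A (6.10%) and RPSA (5.01%). The copies of RPS27, RPS2, RPS7 and RPS27A with the highest levels were at least 98.7% identical to the mRNA of their gene.

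RPS28P7, on chromosome 11 from 82689559 to 82689768 (210 bases), matches the RPS28 mRNA without a difference. It was listed at 986.8, 986.8 and 1043 TPM in siCTR and at 1237, 1329 and 1380 TPM in siCEP20 samples, far above RPS28 itself, and its groups were separate. RPS28 and its pseudogenes together gave 1163, 1149 and 1175 TPM in siCTR and 1299, 1390 and 1449 TPM in siCEP20 samples, a log2 fold change of 0.25 (SE 0.051, adjusted p = 0.00595), opposite in sign to that of RPS28 alone. The copy has 210 bases, the canonical RPS28 transcript has 1330, and TPM is divided by length. A read assigned to the copy may thus count for more in this sum, and how far this shaped the rise was not tested. The direction of RPS28 is therefore uncertain. For the other members, adding the pseudogenes moved the log2 fold change by at most 0.0376, and 22 of 29 were then lower and 2 higher.

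**Figure D4:**
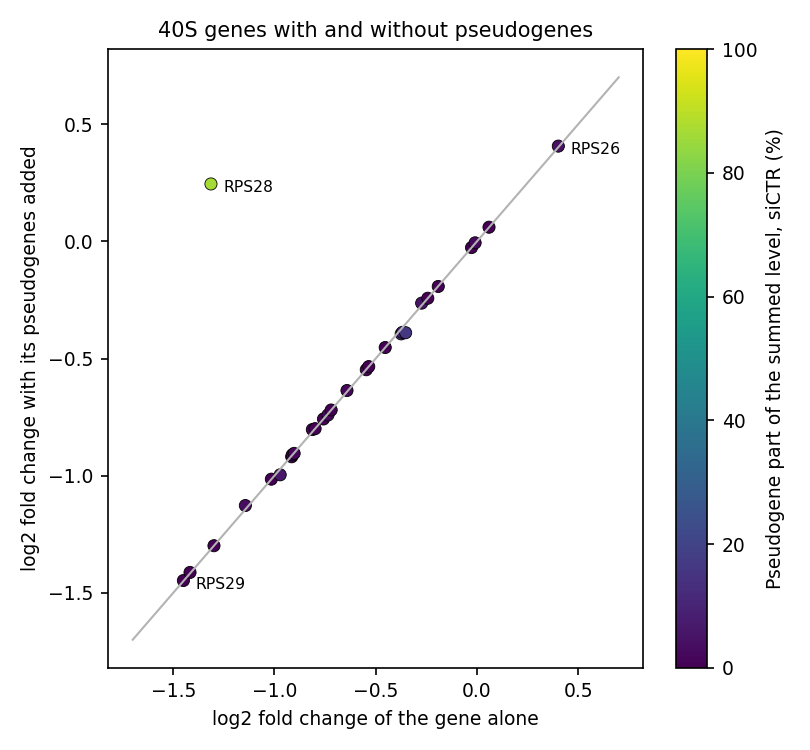
The log2 fold change of each member alone (horizontal axis) is plotted against that of the member with its processed pseudogenes added (vertical axis). RPS28 leaves the diagonal, from -1.31 to 0.25, and the other members lie within 0.0376 of it.

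The mRNAs of the 40S genes are short, from 295 to 6110 bases in the canonical transcript with a median of 732, while the tested genes had a median of 2818. Among other protein-coding genes, the median log2 fold change was -0.32 under 600 bases, -0.21 from 600 to 999, 0.02 from 1000 to 1999, 0.14 from 2000 to 3999 and 0.24 from 4000 bases on. In the same bins the members had medians of -0.86 (12 genes), -0.64 (6), -0.24 (5), -0.80 (5) and -0.45 (RPS27L alone). In each bin the median of the members lay below that of the other genes, and the median of the other genes was lower in each bin of shorter transcripts. The bins and the correction below rest on the annotated canonical transcript. For RPS3, RPS14, RPS15A, RPS19 and RPS23 it has 2021 to 3252 bases. The isoform that A549 cells use was not measured, so a member may stand in the wrong bin. Of other genes under 600 bases 47.0% were lower, and of the 12 members of that length 8 were. Once length and GC content were corrected for, 20 members were lower and 3 higher, with a median of -0.60. The part of transcript length in the falls was not tested beyond this.

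The members are also abundant. Of the 170 other protein-coding genes with a mean over 500 TPM, 35.9% were lower (median 0.05 on the log2 scale), beside the -0.72 of the members.

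**Figure D5:**
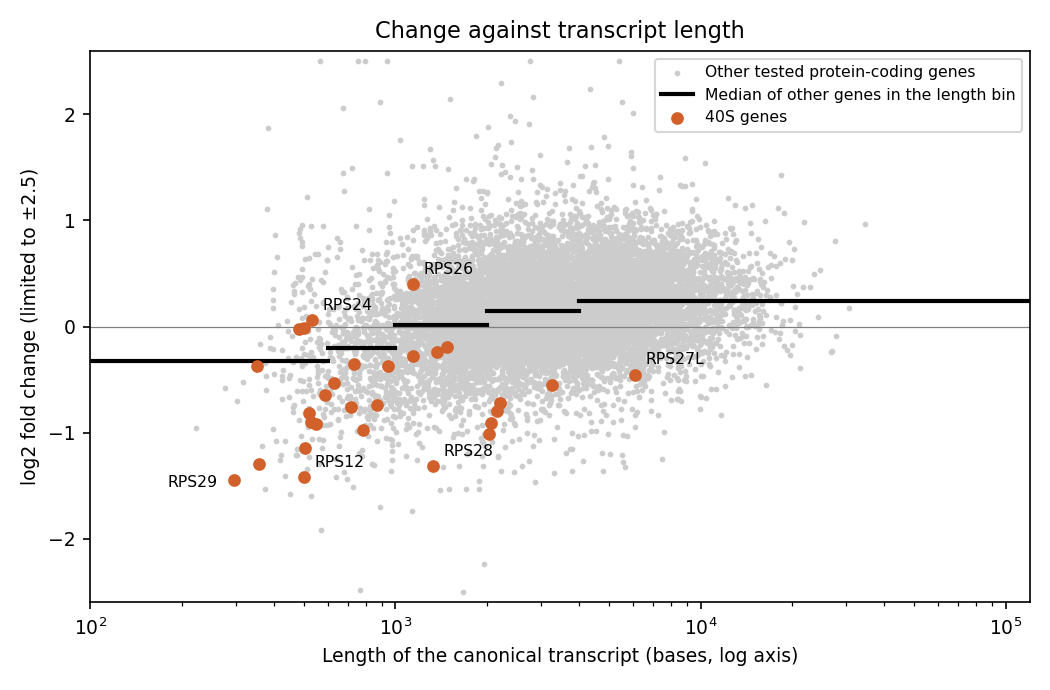
The log2 fold change (values beyond 2.5 drawn at 2.5) is plotted against canonical transcript length (bases, log axis) for the 29 members and the other tested protein-coding genes, with lines at the median of the other genes in each length bin. The medians leave out all genes of cytosolic ribosomal proteins. These medians run from -0.32 under 600 bases to 0.24 from 4000 bases on, and RPS12 and RPS29 lie far below them, as does RPS28 taken alone (-1.31, but 0.25 with its pseudogenes), while RPS15, RPS24, RPS25 and RPS26 lie above.

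7 members carry small nucleolar RNAs (snoRNAs) in their introns, 14 in all, which guide the modification of ribosomal and other RNAs. These were RPSA, RPS2, RPS3, RPS3A, RPS12, RPS13 and RPS20. All 7 were lower (median log2 fold change -0.81, from -1.42 to -0.27), and 16 of the other 22 members were lower (median -0.59). The snoRNAs themselves are not polyadenylated and were not examined.

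Genes of the large subunit fell as well, with a median nearer to 0. Of 47 genes of 60S proteins, 43 were lower (91.5%, against 13.2% of all tested genes) and 1 was higher (2.13%, against 30.2%). Of these 47, 13 were called lower, against 4.61% of all tested genes, and the median was -0.43 on the log2 scale. Under the median of ratios 45 were lower and 0 higher, and under quantile normalization 31 and 3. Without replicate 1 of both groups the counts were 37 and 1. RPL31 and RPL9 had the smallest adjusted p among those that fell (-0.95 and -0.97), and RPL28 was the one that rose (0.29, adjusted p = 0.0036). The TPM of the 29 genes was 0.595, 0.580 and 0.555 of that of the 60S genes in siCTR and 0.522, 0.516 and 0.513 in siCEP20 libraries. This ratio did not overlap between the groups. In the 60S genes the TOP tract stood at 73.7% of 38 annotated starts, close to its share in the 40S genes.

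The 31 genes of the mitochondrial small subunit were divided in direction. Of these, 11 were lower (35.5%, against 13.2% of all tested genes) and 8 higher (25.8%, against 30.2%). Their median was 0.04, and that of all tested genes was 0.13. The counts were 13 lower and 3 higher under the median of ratios (median -0.11), and 8 and 4 without replicate 1 of both groups. MRPS12 (log2 fold change -0.73) and MRPS28 (-0.64) fell, and MRPS2 (0.64) and MRPS18A (0.50) rose. Their share of all TPM was 0.281% to 0.285% in siCTR and 0.264% to 0.286% in siCEP20 libraries, and the groups overlapped.

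Factors that build the 40S subunit or act on it were divided in direction. Of 60 assembly factors, 18 were lower (30.0%, against 13.2% of all tested genes) and 15 higher (25.0%, against 30.2%). Their median was 0.01 on the log2 scale, and that of all tested genes was 0.13. Under the median of ratios 24 were lower and 10 higher, and without replicate 1 of both groups 10 were lower and 10 higher. TRMT112, the partner of several methyltransferases, fell from 367.9 ± 8.41 to 179.1 ± 7.26 TPM (SD, n = 3, log2 fold change -1.03), and its partner BUD23, which methylates the 40S ribosomal RNA, fell from 208.6 ± 0.558 to 147.2 ± 5.72 TPM (-0.50). MPHOSPH10, of the early processome, rose (0.85), as did RIOK1, a kinase of late 40S maturation, which went from 9.36 ± 0.942 to 17.1 ± 1.16 TPM (0.81).

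Of 19 tested kinases and other proteins that modify or bind the mature subunit, 3 were lower and 5 higher (median 0.10). These shares, 15.8% and 26.3%, lay near the 13.2% and 30.2% of all tested genes. The counts were 5 lower and 3 higher under the median of ratios (median -0.05) and 4 and 3 under quantile normalization. RACK1, which sits on the head as a scaffold, fell from 2117 ± 31.3 to 1738 ± 35.0 TPM (SD, n = 3, log2 fold change -0.28), and SERBP1, which occupies the mRNA channel of idle ribosomes, fell too (-0.49). HABP4, a relative of SERBP1, rose from 7.01 ± 0.705 to 16.8 ± 0.565 TPM (1.15), and USP10, which removes ubiquitin from 40S proteins, rose by 0.51. Among 15 regulators of TOP mRNAs, 2 were lower and 6 higher (median 0.21), but 3 lower and 3 higher under both the median of ratios (median 0.06) and quantile normalization (median 0.08). EIF4EBP1, a translational repressor under mTORC1, and CNBP, which binds TOP mRNAs, fell slightly (-0.27 and -0.15), and TSC2, an inhibitor of mTORC1, and LARP4 rose (0.69 and 0.54). The direction counts of these last 2 lists moved by over 1.5 times when 1 siCEP20 library was left out: without siCEP20 replicate 2 or 3, 3 of each list were higher. Without replicate 1 of both groups, 2 kinases and modifiers were lower and 4 higher, and 2 TOP regulators were lower and 3 higher.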

How the data were processed

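The authors trimmed reads with fastp 0.20.1, aligned them to hg38 with HISAT2 2.1.0, estimated TPM with StringTie 2.0 and deposited these TPM values by Ensembl gene for 6 libraries. The versions are from the submitters' processing notes. The annotation release is not given in the sources used here, and all columns were matched to samples by name. Genes were named and placed with GENCODE release 44, which held 60370 of the 60624 genes. For the 14778 genes averaging 1 TPM or more, log2(TPM + 1) was fitted without rescaling in limma 3.58.1 (R 4.3.3, trended eBayes), with Benjamini-Hochberg adjustment. On this scale the change of low genes is understated. The thresholds for called genes (fold change over 1.5 or under 0.67) are those of the study's methods. The authors' count-based test was not repeated, since TPM holds no counts. Tables were made in Python 3.11.15. The gene-by-gene fit was tested on simulated data. The study's statistics section speaks of 3 independent experiments for its results, without naming the RNA sequencing. Whether the 3 samples of a group came from separate cultures is not certain, so p-values measure the spread between these samples, which may be technical. The members, the other gene lists, drawn up by hand, and the tests were chosen with earlier results of these data known. All members are named. Values per sample are given for the members with the 3 most negative and the 3 most positive fold changes, the 3 most abundant, those not passing or higher, the paralog pair, the fusion genes, RPS6 and RPSA, and from each other list the 2 genes with the smallest adjusted p in each direction are named. Alternatives were other pseudocounts, filters, scalings and thresholds, a replicate block, a length and GC correction (loess, span 0.5), protein-coding genes only, pseudogenes added, and libraries left out. Leaving out MTATP8P1, or replicate 1 of both groups, was added after seeing the data.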

Additional observations from a re-analysis of the deposited data

How the results depend on the processing

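Over 19 alternatives for each member, 517 of 551 values kept their direction and their side of the threshold, and 17 of the 23 lower members did so in all 19. The members lower ranged from 19 (quantile normalization, with 4 higher) to 24, and those called lower were 6 with a fold change of 2 required. The number higher was 3 with length and GC corrected and 2 with pseudogenes added. Under median-of-ratios scaling, quantile normalization, the length and GC correction and added pseudogenes, the members' median log2 fold change was -0.87, -0.52, -0.60 and -0.64. The difference in their share of all TPM was -2.26 points under median-of-ratios scaling, -1.21 under quantile normalization and -2.37 with TPM rescaled without ribosomal protein genes. The RPS27L to RPS27 log2 ratio was -0.42 under quantile normalization and after the length and GC correction. Of all tested genes, 1102 were called lower and 891 higher under median-of-ratios scaling, 918 higher under quantile normalization, and 147 lower and 261 higher with a fold change of 2 required. At an adjusted p under 0.05 alone, 2933 were lower under quantile normalization, and 1271 were lower and 2850 higher without replicate 1 of both groups.

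Signs turned for members near 0. RPS15 was 0.23 under quantile normalization, 0.24 with length and GC corrected, 0.0047 with MTATP8P1 left out and 0.0305 without replicate 1 of both groups, and ranged from -0.0519 to 0.0311 with single libraries left out (above 0 without siCTR replicate 1 or siCEP20 replicate 3). RPS25 was 0.21, 0.17 and 0.0566 under the first 2 and the last of these, and ranged from -0.0889 to 0.021 with single libraries left out (above 0 without replicate 1 of either group). Under quantile normalization RPSA (0.0562) and RPS4X (0.0361) turned. RPS28 turned with pseudogenes added (0.25), and RPS24 under median-of-ratios scaling (-0.0915), with TPM rescaled without ribosomal protein genes (-0.0154) and without siCTR replicate 2 (range -0.002 to 0.096). The cause was not tested, except that for RPS28 the added level of RPS28P7 carries the turn. RPS4X also missed the threshold with no filter on low TPM, with no trend, after the length and GC correction and without replicate 1 of either group, and RPS6 with no filter. Without replicate 1 of both groups, RPS27L (-0.33, adjusted p = 0.0483), RPS6 (-0.18, adjusted p = 0.0485) and RPS27 (-0.31, adjusted p = 0.0371) came close to the threshold but still passed. Replicate 1 of both groups shared MTATP8P1 and a correlation of 0.157 between their deviations, while the pairs numbered 2 and 3 had -0.0614 and -0.0623. Pairs of unlike number ranged from -0.121 to 0.17, so the numbers were not taken to pair the samples. With the replicate block 24 members were lower and 16 called lower, and RPS10 alone changed its call (-0.64, adjusted p = 0.0072). Depth is unknown and sets no limit that could be computed.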
